A study of Mus musculus with 6 samples.

Results

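A set of markers of the epicardium and of mesothelium were followed in mouse infarct tissue. They were the transcription factor genes Wt1 and Tbx18, the retinoic acid synthesis gene Aldh1a2, the surface protein genes Msln, Upk3b and Upk1b, the keratin genes Krt8, Krt18 and Krt19, and Pdpn, which encodes podoplanin. These are 10 of the 36047 genes that the estimated counts were joined to, and all 10 were among the 20094 genes with enough counts to be tested. Pdpn was chosen by its measured values: it had one of the smallest p-values in an earlier comparison of LGK-974 with DMSO in these same libraries, and the other genes were put around it by name. The differences between the groups are therefore given for the members as a description, with no test.

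The epicardium is the mesothelial layer that covers the heart, and it belongs to the same kind of simple epithelium as the pleura and the peritoneum. In the embryo its cells are marked by Wt1, Tbx18 and Aldh1a2, and some of them lose their epithelial character and enter the heart wall, where they give rise to fibroblasts and mural cells. In the adult heart the layer is largely quiet, and injury is known to switch the embryonic genes on again. Podoplanin is a mucin-like membrane glycoprotein of mesothelium that is also made by lymphatic endothelium, alveolar cells and activated stromal cells.

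The libraries came from the infarcted part of hearts of female C57BL6 mice aged 12 weeks, taken 48 h after ischemia/reperfusion (I/R). In the treated group, 3 animals had received LGK974 (LGK-974 here), an inhibitor of Porcupine, which puts a lipid on Wnt proteins so that cells can secrete them, and 3 animals had received the DMSO vehicle. All 6 animals had the injury, so an uninjured heart is not part of the comparison, and the share of the outer heart surface in each piece is not given in the sources used here. The comparison asks what blocking Wnt secretion does to the transcriptome of the early infarct.

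The libraries held 41579787 to 80398211 estimated counts, and mitochondrial genes held 28.2% to 53.7% of them. DMSO replicate 1 stood apart in receptor gene families that were taken here as a background of little or no expression. Whether some of these genes are expressed in the heart was not tested. Over 1503 olfactory, vomeronasal and taste receptor genes, it had a median of 33.9 counts per kb of transcript, against 3.16 to 12.5 in the other 5 libraries, and 99.3% of these genes had counts in it. Log2 fold changes that rest on this library are given with and without it. In the comparison of LGK-974 with DMSO, edgeR (quasi-likelihood test, Benjamini-Hochberg adjusted) called 0% of all tested genes, and 13.4% had an unadjusted p-value under 0.05. DESeq2 called 1.42% of the genes it tested. Every LGK-974 library lay above every DMSO library for 10.7% of the genes and below for 7.27%, and the median log2 fold change of all genes was −0.13. These shares are the background for the members. Of the 10 members, 2 lay above (Pdpn and Aldh1a2) and 1 below (Wt1). The same pair had an unadjusted p-value under 0.05 and was called by DESeq2, while 0 members passed with edgeR's adjusted p. Since the same contrast chose Pdpn, nothing is read from these counts.

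Per length, the members spanned a wide range. The authors' TPM values, which are scaled to length, averaged 15.0 for Aldh1a2, 8.27 for Pdpn, 6.22 for Msln, 3.52 for Tbx18 and 3.03 for Wt1 over the 6 libraries. Krt18 averaged 1.40 TPM, and Krt19, Krt8, Upk1b and Upk3b averaged 0.588, 0.393, 0.278 and 0.250. Of the 9 steps in this order, 2 held in 6 of 6 libraries, namely Aldh1a2 over Pdpn and Msln over Tbx18. The other 7 held in 1 to 5 libraries, with Pdpn over Msln in 4, Tbx18 over Wt1 in 4 and Krt18 over Krt19 in 3, so those neighbours did not differ beyond their spread. The place of Msln rests on a short retained-intron transcript. On its protein-coding transcripts alone it averaged 0.193 TPM and was below Tbx18 in 6 of 6 libraries. The labels name a kit that captures coding RNA with probes, and a difference in capture between genes would move this order, which was not tested. In bulk tissue, a lower level can mean fewer cells that use the gene or less RNA per cell, and these cannot be told apart.

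**Figure D1:**
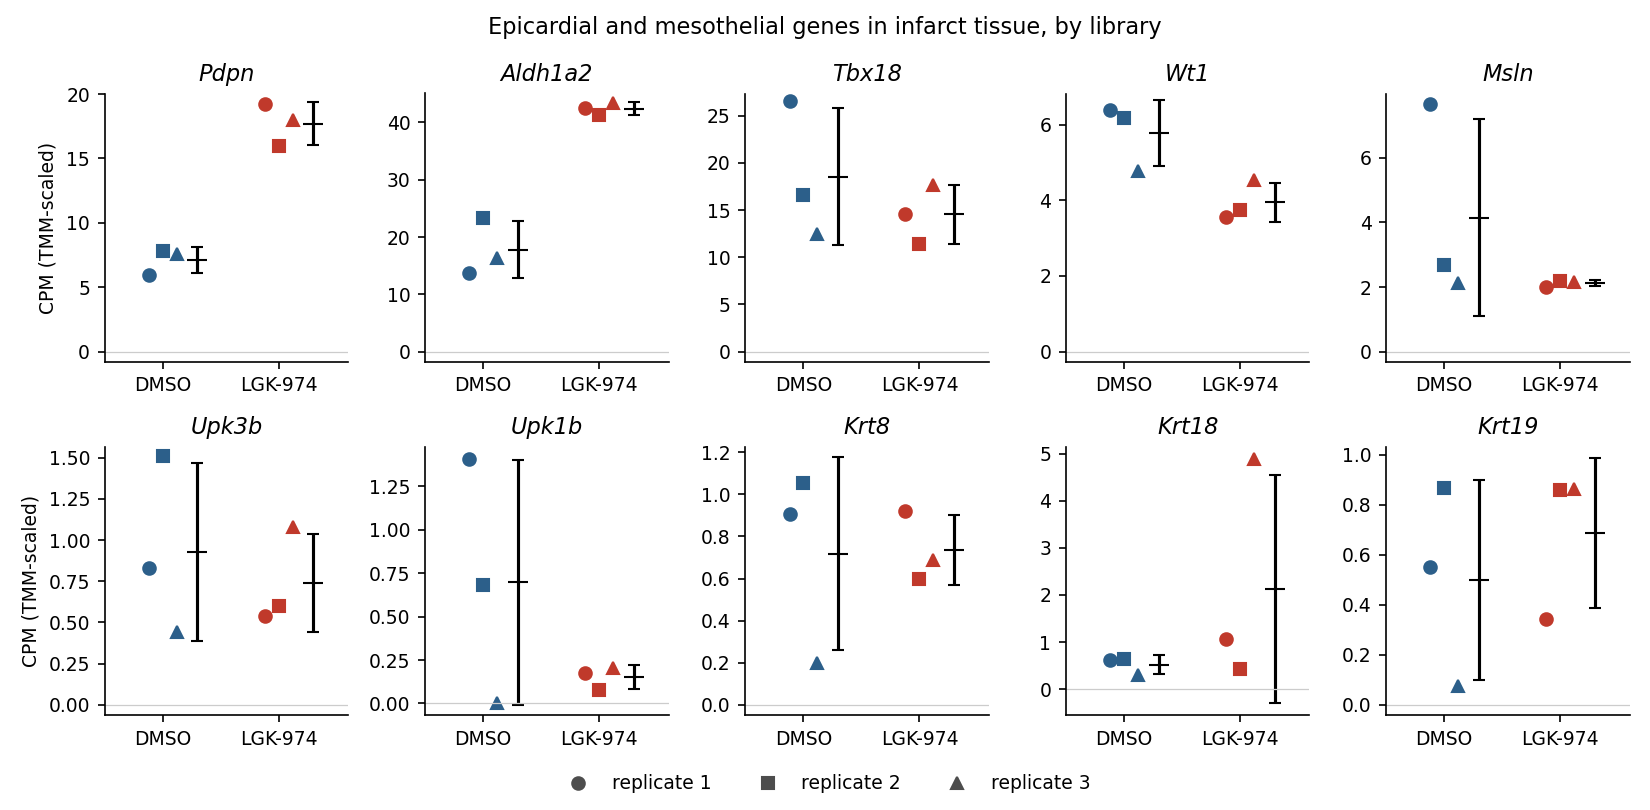
CPM of the 10 genes (vertical axes, counts scaled to library size by TMM, with a separate range for each gene) in the 3 DMSO (blue) and 3 LGK-974 (red) libraries. Points are libraries, with the replicate number as the shape, and the black mark and bar are the mean and SD. Pdpn and Aldh1a2 are higher in all 3 LGK-974 libraries, while most other genes overlap.

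In the GRCm38 build, Pdpn spans 143267431 to 143299564 on the minus strand of chromosome 4. Its protein binds the platelet receptor CLEC-2 and, inside the cell, the ezrin and moesin linkers of the actin cortex. Pdpn was at 19.2, 15.9 and 17.9 CPM (counts scaled to library size with edgeR's TMM factors) in LGK-974 replicates 1 to 3 and at 5.93, 7.80 and 7.59 CPM in DMSO replicates 1 to 3. The groups were wide apart, and the means were 17.7 ± 1.66 and 7.11 ± 1.02 CPM (SD, n = 3 each). With CPM not scaled by TMM, the values were 20.4, 13.0 and 24.9 under LGK-974 and 4.89, 7.80 and 7.46 under DMSO. The groups stayed apart, with a wider spread under LGK-974. The log2 fold change was 1.32 (standard error 0.181), 2.49 times the DMSO level. It ranged from 1.22 to 1.47 over 18 other settings, and without DMSO replicate 1 it was 1.22. The transcript Pdpn-201 held 96.9% of the counts of the gene.

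Aldh1a2 lies on chromosome 9 from 71215789 to 71296243, on the plus strand. It encodes retinaldehyde dehydrogenase 2, which makes retinoic acid and is the classical enzyme of the embryonic epicardium. Its values were 42.5, 41.3 and 43.5 CPM under LGK-974 and 13.8, 23.3 and 16.3 CPM under DMSO. With this scaling the 3 LGK-974 libraries were nearly equal, and each was above every DMSO library. The means were 42.4 ± 1.09 and 17.8 ± 4.94 CPM (SD, n = 3 each). The near-equality depended on the scaling. With CPM not scaled by TMM, the values were 45.1, 33.7 and 60.3 under LGK-974 and 11.4, 23.3 and 16.0 under DMSO, and the groups stayed apart. The log2 fold change was 1.25 (standard error 0.208), 2.38 times the DMSO level, and ranged from 1.12 to 1.48 over 18 other settings. The lowest value, 1.12, was the one without DMSO replicate 1. A single transcript, Aldh1a2-201, was measured, and none of its stretches of 31 bases, the word length used for this check, occurs in a transcript of another gene.

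**Figure D2:**
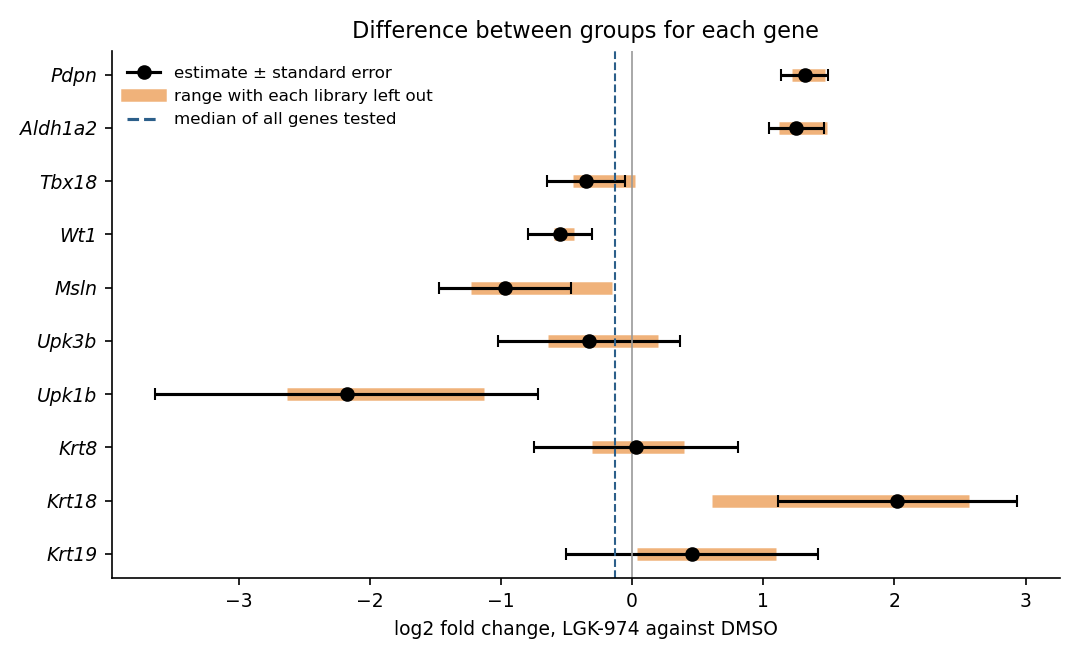
Difference between LGK-974 and DMSO for each of the 10 genes, as a log2 fold change on the horizontal axis. Points and black bars are the edgeR estimate and its standard error, the orange bars are the range when each library was left out in turn, and the dashed line is the median of all genes (−0.13). Pdpn (1.32) and Aldh1a2 (1.25) have narrow ranges, while those of Tbx18, Upk3b and Krt8 include 0.

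The sequences around the start of these genes are shown because Pdpn and Aldh1a2 were the 2 members above in every LGK-974 library. They are RefSeq promoter windows of 300 bases (250 before and 50 after the start, GRCm38.p6), 5′ to 3′ on the strand of the gene. Such a window was matched for 6 of the 10 members, Pdpn, Aldh1a2, Tbx18, Upk3b, Krt8 and Krt18. The motifs searched on both strands were a TATA box (TATAAA), a GC box (GGGCGG), the box CCAAT and an AP-1 site (TGANTCA). A single form, CTTTGA, of the core that TCF/LEF factors of the Wnt pathway bind was also searched. Other forms of that core were not searched and are not marked. Matches are in capitals.
Pdpn, chr4:143299515-143299814, minus strand: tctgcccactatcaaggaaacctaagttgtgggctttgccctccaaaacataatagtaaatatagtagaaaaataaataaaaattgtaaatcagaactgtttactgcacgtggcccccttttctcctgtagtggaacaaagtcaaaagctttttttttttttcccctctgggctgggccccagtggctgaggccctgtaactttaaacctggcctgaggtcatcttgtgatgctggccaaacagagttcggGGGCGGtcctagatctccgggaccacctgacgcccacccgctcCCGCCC
Aldh1a2, chr9:71215539-71215838, plus strand: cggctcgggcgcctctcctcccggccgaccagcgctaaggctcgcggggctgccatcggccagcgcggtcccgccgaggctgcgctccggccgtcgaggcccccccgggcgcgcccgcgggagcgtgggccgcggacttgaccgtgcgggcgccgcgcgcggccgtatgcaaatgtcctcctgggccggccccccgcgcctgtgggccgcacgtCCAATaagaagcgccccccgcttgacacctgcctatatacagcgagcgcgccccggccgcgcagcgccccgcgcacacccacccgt
The Pdpn window held 2 GC boxes, 1 on each strand, a motif found in 35.7% of the 32851 RefSeq windows. Both lay in the 50 bases after the start. The Aldh1a2 window held 1 CCAAT, found in 37.4% of all windows. No motif of the 5 was in both windows, and they differ in composition, with a GC content of 48.7% for Pdpn and 78% for Aldh1a2 (median of all windows 52.7%). CTTTGA was in 0 of the 6 members' windows and in 16.0% of all windows, which leaves the other forms of the TCF/LEF core unexamined. TATAAA was in 13.6% and TGANTCA in 7.81% of all windows, and neither was in those of Pdpn or Aldh1a2. A match or its absence in so short a window describes these letters only.

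Wt1 lies on chromosome 2 from 105126529 to 105173616, on the plus strand, and encodes the zinc-finger factor that marks epicardial cells from the embryo on. Wt1 was at 3.56, 3.73 and 4.54 CPM under LGK-974 and at 6.38, 6.19 and 4.76 CPM under DMSO. Each LGK-974 library was below each DMSO library, but the nearest values, 4.54 and 4.76, were close. The means were 3.94 ± 0.525 and 5.78 ± 0.883 CPM (SD, n = 3 each), and the log2 fold change was −0.55 (standard error 0.242). The sign held in 18 of 18 other settings (−0.65 to −0.36), but the separation depended on the scaling. With CPM not scaled by TMM, the values were 3.77, 3.04 and 6.30 under LGK-974 and 5.26, 6.18 and 4.68 under DMSO, and the groups overlapped.

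The counts of Wt1 were spread over several transcripts. Protein-coding transcripts held 62.1% of them over all libraries, led by Wt1-205 with 40.4% and Wt1-204 with 14.7%, and Wt1-202 held 5.13%. The retained-intron transcripts Wt1-208 and Wt1-206, which keep an intron and are annotated as non-coding, held 21.0% and 16.9%. The coding share was lowest in DMSO replicate 1, at 41.0% against up to 69.8% elsewhere. On coding transcripts alone, Wt1 was at 2.32, 2.60 and 3.04 CPM under LGK-974 and 2.62, 4.14 and 2.94 CPM under DMSO, so the groups overlapped and the log2 fold change was −0.36.

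Tbx18 lies on chromosome 9 from 87702800 to 87731260, on the minus strand, and encodes a T-box factor of the proepicardium and epicardium. It was at 14.6, 11.4 and 17.6 CPM under LGK-974 and at 26.6, 16.6 and 12.5 CPM under DMSO. The highest value was that of DMSO replicate 1, and the other 5 libraries overlapped. The means were 14.5 ± 3.12 and 18.5 ± 7.27 CPM (SD, n = 3 each), with log2 fold change −0.35 (standard error 0.297), which became 0.02 without DMSO replicate 1. Its exons overlap those of D030062O11Rik on the opposite strand by 970 bases. Counted on either strand, which takes in overlaps like this one, Tbx18-201 shares 19.7% of its stretches of 31 bases with transcripts of other genes. Part of its counts therefore cannot be assigned with certainty. Of the 331 other genes, 314 share a single stretch.

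Msln lies on chromosome 17 from 25748613 to 25754378, on the minus strand, and encodes mesothelin, a surface protein made by mesothelial cells. Msln was at 2.01, 2.18 and 2.16 CPM under LGK-974 and at 7.67, 2.67 and 2.11 CPM under DMSO. Only DMSO replicate 1 was high, and the other 5 libraries lay together. The means were 2.12 ± 0.0918 and 4.15 ± 3.06 CPM (SD, n = 3 each), and the log2 fold change of −0.97 (standard error 0.504) became −0.16 without DMSO replicate 1. Most of these counts were not assigned to a protein-coding transcript. The retained-intron transcript Msln-203 held 80.1% of the counts (65.9% to 94.9% in single libraries), and protein-coding transcripts held 12.8%, which is 121 counts in all 6 libraries together. The coding transcripts alone were at 0.383, 0.112 and 0.351 CPM under LGK-974 and 0.372, 0.655 and 0.344 CPM under DMSO. On these the groups overlapped and DMSO replicate 1 was not the highest library.

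Of the stretches of 31 bases in Msln-203, 20.4% also occur in transcripts of other genes, while the coding transcripts of Msln share none. These other genes number 2195, and a single stretch occurs in 717 of them. How many reads of Msln-203 came from such shared sequence was not tested.

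**Figure D3:**
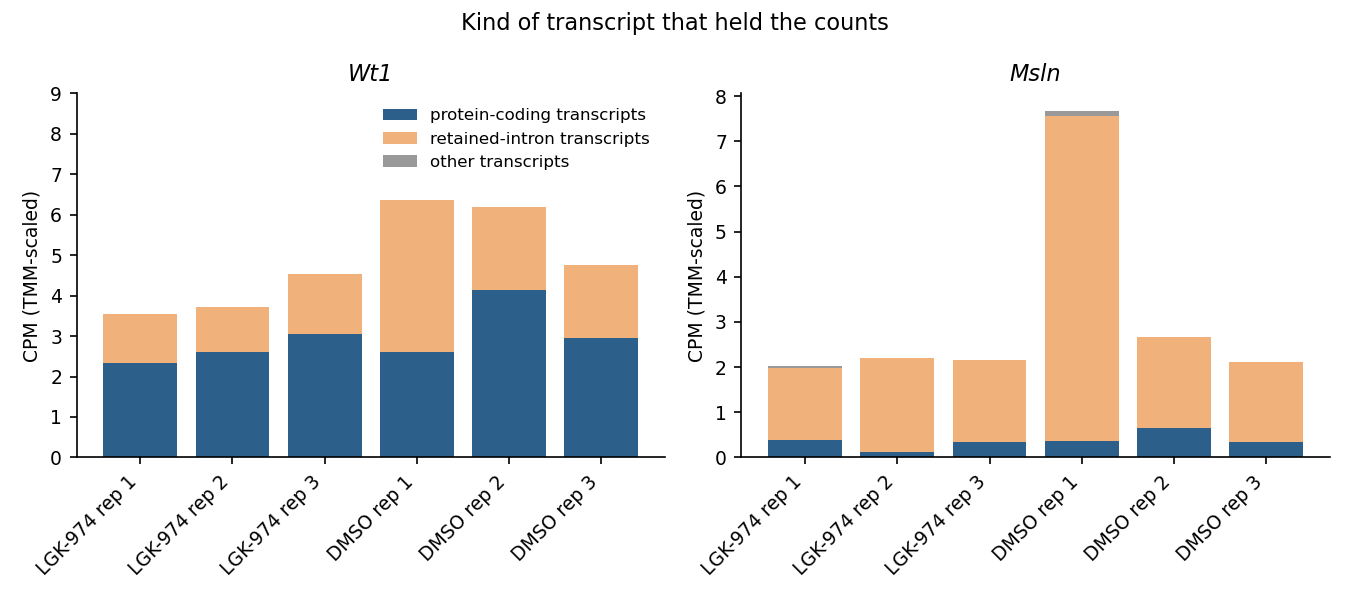
CPM of Wt1 and Msln in each library (vertical axes, stacked bars from 0) by the kind of transcript that held the counts. Retained-intron transcripts (orange) hold most of the counts of Msln in each library, up to 94.9% for Msln-203 alone, and are largest in DMSO replicate 1 for both genes.

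The uroplakin genes were near the limit of detection. Upk3b (chromosome 5, 136038496 to 136046487, plus strand) and Upk1b (chromosome 16, 38773184 to 38800328, minus strand) encode membrane proteins of urothelium that mesothelium also makes. Upk3b had 46, 32 and 69 counts under LGK-974 and 33, 73 and 18 under DMSO, with means of 0.740 ± 0.296 and 0.927 ± 0.541 CPM (SD, n = 3 each). The groups overlapped, and the log2 fold change of −0.33 (standard error 0.696) became 0.20 without DMSO replicate 2. Upk1b had 15, 4 and 13 counts under LGK-974 and 56, 33 and 0 under DMSO. The 0 counts in DMSO replicate 3 allow up to 0.0737 CPM (3 counts, counting error only), about the level of LGK-974 replicate 2 (0.0746 CPM). The DMSO libraries thus held both the highest and the lowest value, and the log2 fold change of −2.18 had a standard error of 1.46. Without DMSO replicate 1 it was −1.13.

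The keratin genes encode the filament proteins of simple epithelia, in which the type II keratin of Krt8 pairs with the type I keratins of Krt18 and Krt19. Krt8 (chromosome 15, 101996698 to 102004482, minus strand) had 78, 32 and 44 counts under LGK-974 and 36, 51 and 8 under DMSO. Krt19 (chromosome 11, 100140810 to 100148665, minus strand) had 29, 46 and 55 counts under LGK-974 and 22, 42 and 3 under DMSO. Both overlapped between groups, with log2 fold changes of 0.03 (standard error 0.776) and 0.46 (standard error 0.960), and both were lowest in DMSO replicate 3. Without that library the values were −0.30 and 0.04. Krt8-201 shares 36.0% of its stretches of 31 bases with transcripts of 11 other genes, and its exons overlap Gm36026 on the other strand by 101 bases.

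Krt18 (chromosome 15, 102028180 to 102032027, plus strand) differed from its partner in 1 library. It had 90, 23 and 312 counts under LGK-974 and 25, 31 and 12 under DMSO, which is 1.06, 0.429 and 4.89 CPM against 0.628, 0.641 and 0.295 CPM. LGK-974 replicate 3 was far above the rest, while LGK-974 replicate 2 lay within the DMSO values. The log2 fold change of 2.02 (standard error 0.911) became 0.61 without LGK-974 replicate 3. In that library Krt8 was at 0.689 CPM and Krt19 at 0.861 CPM, close to the values of other libraries. Krt18-201 shares 11.4% of its stretches of 31 bases with transcripts of 3 other genes.

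Measured against the receptor genes taken as background, the members fell into 3 sets. Per kb of transcript, Msln, with the counts of Msln-203 included, exceeded the 90th percentile of the 1503 receptor genes in 6 libraries. Wt1, Tbx18, Aldh1a2 and Pdpn exceeded it in 5, all but DMSO replicate 1. The Wt1 counts here include its retained-intron transcripts. Its coding transcripts, with 62.1% of the counts, were not set against the receptor genes alone. Krt18 exceeded it in LGK-974 replicate 3 only. Upk3b, Upk1b, Krt8 and Krt19 exceeded it in 0 libraries, so 4 defining epithelial and mesothelial markers were not distinguishable from this background at the depth sequenced. In DMSO replicate 1, where the 90th percentile was 258 counts per kb against 44.1 to 118 elsewhere, Pdpn exceeded 80.4% of the receptor genes, Aldh1a2 89.0%, Tbx18 88.4% and Wt1 77.2%. Of the markers that define the label, Tbx18 and Aldh1a2 were thus measured above this background in 5 libraries, and so was Wt1 with its retained-intron transcripts included. The keratin and uroplakin members had little RNA beside them. Krt7, a keratin gene outside the members, averaged 2.33 CPM under LGK-974 and 3.94 CPM under DMSO and was not set against this background.

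**Figure D4:**
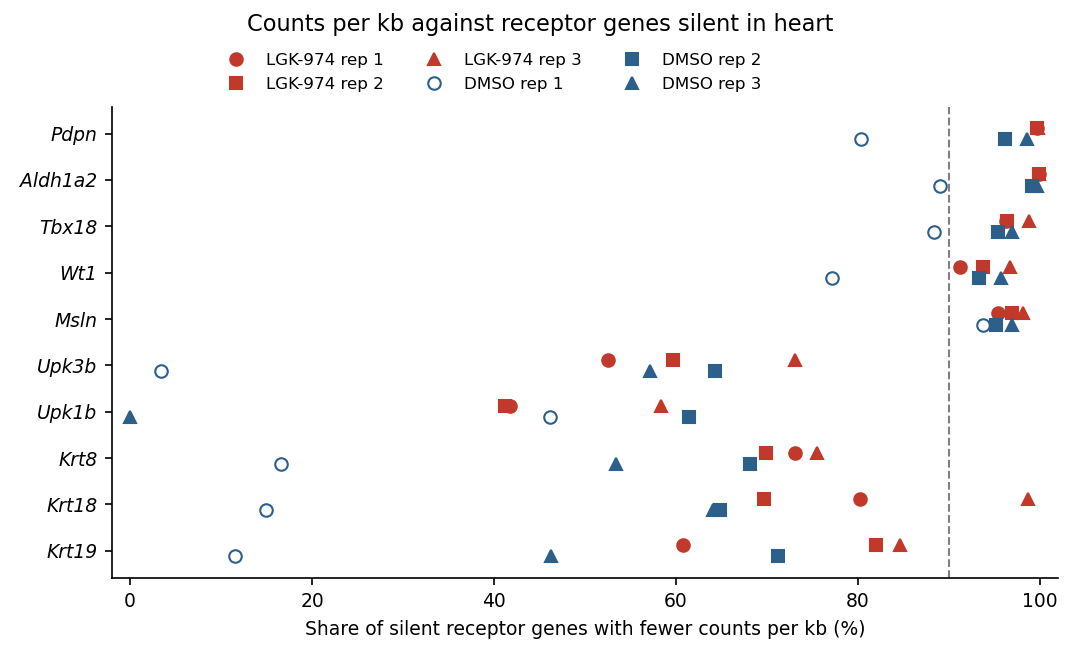
Share of the 1503 receptor genes with fewer counts per kb than each member (horizontal axis, percent) in each library. Red points are LGK-974 and blue points DMSO, the shape is the replicate, the open circle is DMSO replicate 1, and the dashed line is the 90th percentile. Pdpn, Aldh1a2, Tbx18 and Wt1 pass the line in 5 libraries, Msln in 6, Krt18 in 1 and the other 4 genes in 0. Retained-intron transcripts are included for Wt1 and Msln.

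Ratios within a library are free of its scaling. Aldh1a2 had 12.0, 11.1 and 9.57 counts per count of Wt1 under LGK-974 and 2.16, 3.77 and 3.43 under DMSO. Pdpn had 5.41, 4.27 and 3.95 counts per count of Wt1 under LGK-974 and 0.929, 1.26 and 1.59 under DMSO. The values of the groups did not overlap for these ratios, nor for those to Tbx18, at 2.46 to 3.62 against 0.518 to 1.41 for Aldh1a2 and 1.02 to 1.40 against 0.223 to 0.609 for Pdpn. The ratio of Pdpn to Aldh1a2 was at 0.452, 0.386 and 0.413 under LGK-974 and 0.431, 0.335 and 0.465 under DMSO, where the groups overlapped. That of Tbx18 to Wt1 also overlapped (3.06 to 4.11 and 2.61 to 4.17). These ratios use the contrast that Pdpn was picked on, so they describe the libraries and nothing is read from their separation.

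**Figure D5:**
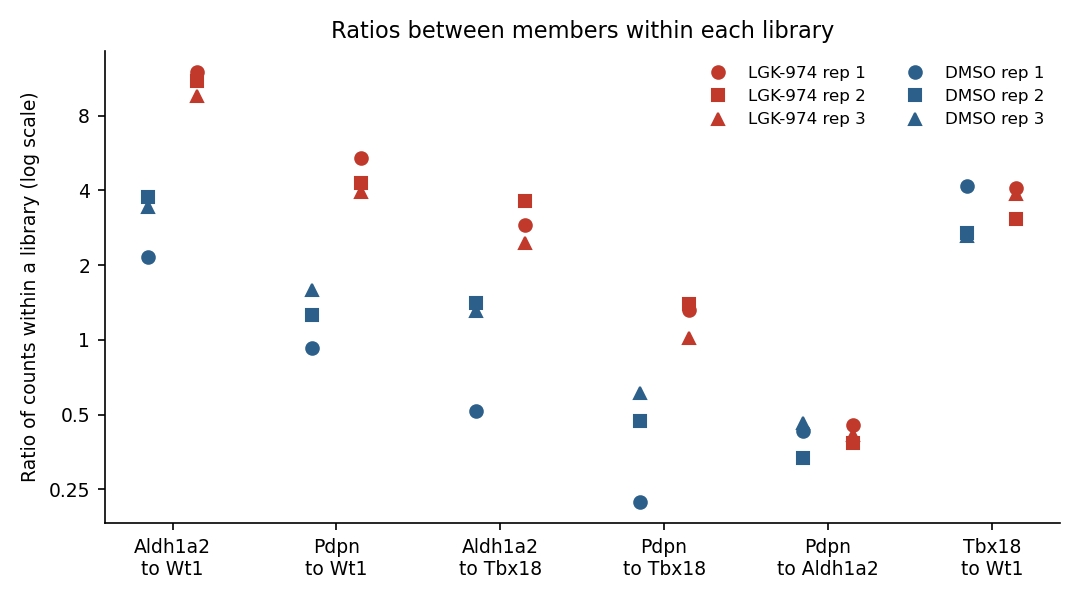
Ratio of estimated counts between pairs of members within each library (vertical axis, log scale). Red points are LGK-974, blue points DMSO, and the shape is the replicate. The first 4 ratios separate the groups, and Pdpn to Aldh1a2 (0.335 to 0.465) and Tbx18 to Wt1 do not.

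The profile of each of 3 members over the 6 libraries was compared with those of 15524 other genes with a mean of at least 1 CPM, by the root mean square difference of log2 CPM after each gene's mean was subtracted. The genes most like Pdpn were Mcub (0.104), Evi2b (0.110) and Slc15a3 (0.114), and Aldh1a2 came 11th (0.158). Wt1 came 11666th and Tbx18 11249th from Pdpn. The genes most like Wt1 were Ptk6 (0.0729), Map2k6 (0.0779) and Prl2c3 (0.0813), with Tbx18 in place 883 (0.282). The genes most like Msln were Trpm3 (0.0613), Cpne5 (0.0656) and Megf11 (0.0667). The profiles of Wt1 and Msln take in their retained-intron transcripts, and Msln-203 held 80.1% of the Msln counts. Coding transcripts alone were not compared in this way. These figures describe 6 libraries, in which all genes share the scaling and the group difference.

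Lists of related genes were read against all genes tested, of which 40.5% had a positive log2 fold change, 13.4% an unadjusted edgeR p under 0.05 and 1.42% a DESeq2 call. Of 16 other genes of the epicardium and mesothelium 15 were tested, 6 with a positive and 9 with a negative log2 fold change, and the median was −0.15 (−0.13 over all genes). None had an unadjusted edgeR p under 0.05, and edgeR's adjusted test and DESeq2 called 0. The smallest p-values were those of Muc16, a mesothelial mucin gene, at a log2 fold change of −1.86 with standard error 0.826, and Tcf21, a factor gene of epicardium-derived fibroblasts, at 0.59 with standard error 0.266. Muc16 was at 16.2 CPM in DMSO replicate 1 and at 0.986 to 5.32 CPM in the other 5 libraries, and without that library its log2 fold change was −0.64 and that of Tcf21 0.44. Without it the list had 8 positive and 7 negative values, with a median of 0.05, and 1 gene, Sema3d, had an unadjusted edgeR p under 0.05. Of 4 other uroplakin genes only Upk1a was tested (−0.61, standard error 0.877). Of 12 other keratin and junction genes 9 were tested, 8 of them with a negative log2 fold change (median −0.75), and 1 had an unadjusted p under 0.05, Ocln, an occludin gene of tight junctions (−1.60, standard error 0.675). Krt7 had −0.75 (standard error 0.502). Both were highest in DMSO replicate 1, at 2.79 and 7.04 CPM. Without that library Ocln had −0.86 and Krt7 −0.02, the median of the 8 genes then tested was −0.25, and 0 had an unadjusted edgeR p under 0.05, against 11% of all genes. Krt5, Krt14, Krt20 and Krt23 had 0 counts in at least 1 library.

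Of the retinoic acid pathway around Aldh1a2, 16 of 18 genes were tested, 6 with a positive and 10 with a negative log2 fold change (median −0.09). edgeR gave 4 of them an unadjusted p under 0.05, 3 higher and 1 lower, 0 passed with adjustment, and DESeq2 called 0. Aldh1a3, another enzyme gene of retinoic acid synthesis, was at 3.80, 5.02 and 10.8 CPM under LGK-974 and 3.34, 2.46 and 1.94 CPM under DMSO. Each LGK-974 library was above each DMSO library, and LGK-974 replicate 3 was the highest. The log2 fold change was 1.34, with standard error 0.435 and an adjusted p of 0.368 from edgeR and 0.101 from DESeq2.

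Of 17 genes of epithelial-to-mesenchymal transition, the process by which epicardial cells enter the heart wall, 13 had a positive and 4 a negative log2 fold change (median 0.25). An unadjusted p under 0.05 was found for 7, 6 higher and 1 lower, and 0 passed edgeR's adjustment, while DESeq2 called 3. Tgfb2, a growth factor gene that drives this transition, was at 75.6 ± 19.8 CPM under LGK-974 and 32.3 ± 5.86 CPM under DMSO (SD, n = 3 each), and the log2 fold change was 1.23 (standard error 0.243, DESeq2 adjusted p = 0.00197, edgeR adjusted p = 0.368). Zeb2, a repressor of epithelial genes, had 0.66 (standard error 0.177, DESeq2 adjusted p = 0.0262, edgeR adjusted p = 0.368). Of 10 podoplanin partners, 6 had a positive log2 fold change and 4 a negative (median 0.15), 2 had an unadjusted p under 0.05, 0 passed edgeR's adjustment and DESeq2 called 1. That was Cd44, a hyaluronan receptor that binds podoplanin, at 93.0, 76.3 and 83.8 CPM under LGK-974 and 36.7, 48.9 and 48.8 CPM under DMSO, and its log2 fold change was 0.91 (standard error 0.178, DESeq2 adjusted p = 0.00558, edgeR adjusted p = 0.368). Msn, which encodes moesin, had 0.65 (standard error 0.243).

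Markers of other cell types that make podoplanin or could lie in the dissected piece were read beside it. The 7 lymphatic endothelial markers summed to 184 to 248 CPM under LGK-974 and 169 to 203 CPM under DMSO, with 3 positive and 4 negative log2 fold changes (median −0.17). Nrp2 (0.74, standard error 0.218) and Reln (−0.69, standard error 0.371) had the smallest p-values. The 6 lung epithelial markers, alveolar except for the airway gene Scgb1a1, were at or near 0. Their sums were 0.601 to 0.877 CPM under LGK-974 and 0.958 to 2.84 CPM under DMSO. Sftpc, Sftpa1, Scgb1a1 and Aqp5 had 0 counts in at least 1 library. The 5 adipocyte markers summed to 1.32 to 2.21 CPM and 1.47 to 7.01 CPM, and Adipoq, Cidec and Lep had 0 counts in at least 1 library. The highest sum of both lists was in DMSO replicate 1, the library with the most counts on receptor genes, and their part in the levels of Pdpn was not tested.

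The summed fibroblast and leukocyte markers, like Pdpn and Aldh1a2, were higher in every LGK-974 library. This was not particular to them. The epithelial-to-mesenchymal transition genes summed to 1761 to 1963 CPM under LGK-974 and 1127 to 1573 CPM under DMSO. The podoplanin partners summed to 1404 to 1573 CPM and 1298 to 1361 CPM. The sum of the lung epithelial markers was lower in every LGK-974 library. How often sums of other lists separate the groups was not tested. Of 10 fibroblast markers 9 had a positive log2 fold change (median 0.44), 4 had an unadjusted p under 0.05 and DESeq2 called 3. Their sums were 2260 to 3914 CPM under LGK-974 and 1214 to 1750 CPM under DMSO. The smallest p-values were those of Postn (1.56, standard error 0.301) and Col1a2 (1.07, standard error 0.317). Col1a1, named after its values were seen, made up the largest part of the sums (1265 CPM on average under LGK-974 and 580 under DMSO), while Dcn (0.01), Pdgfra (0.13) and Fap (−0.21), also named after their values were seen, had small log2 fold changes and overlapping groups. All 10 leukocyte markers had a positive log2 fold change (median 0.92), 9 had an unadjusted p under 0.05 and DESeq2 called 7. Their sums were 475 to 608 CPM and 210 to 298 CPM. By p-value the list was headed by Lyz2 (1.30, standard error 0.237) and Cd53 (1.07, standard error 0.201). Of 8 cardiomyocyte markers 7 had a negative log2 fold change (median −0.43), with sums of 18565 to 26833 CPM and 23487 to 31793 CPM that overlapped. Actc1 had the smallest p-value, with 0.86 (standard error 0.309), and Myl2 had −0.51 (standard error 0.279). edgeR's adjusted test called 0 genes of each list. The part of fibroblasts, leukocytes or other cells in the levels of Pdpn and Aldh1a2 was not tested.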

How the data were processed

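RNA of infarct tissue from 3 LGK-974 and 3 DMSO animals was sequenced. Per the labels and the paper's methods, ribosomal RNA was depleted, libraries were made with a kit that captures coding RNA, and the authors quantified Ensembl transcripts of GRCm38 with Kallisto. The program's version is not given in the sources used here. The authors deposited estimated counts and TPM for 118489 transcripts per library. Estimated counts are divided by the program between transcripts that share sequence. TPM is scaled to length and library by the authors.

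Of the transcripts, 98.6% were joined to 36047 genes with GENCODE vM21, and the counts were summed and rounded. Genes that reached 10 counts in 3 or more samples were fitted with edgeR 4.0.16 (R 4.3.3, TMM, treatment only, Benjamini-Hochberg, threshold 0.05). DESeq2 1.42.0 and limma 3.58.1 (voom) were alternatives, beside other scalings, filters, counting units, a replicate block and each library left out. The fits were tested on simulated data. CPM are counts scaled to library size with the TMM factors unless stated. Python 3.11.15 with pandas 2.3.3 and matplotlib 3.10.9 made the tables and figures. The labels give 3 animals a group, so p-values measure the spread between animals.

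The members and gene lists were chosen with earlier results of these data known. Genes named were the 10 members, the 2 of each list with the smallest p-values, the 3 most like Pdpn, Wt1 and Msln, and transcripts with at least 5% of a member's counts. Others named beside them, and genes at 0, were chosen after their values were seen. Ccl21a of the lymphatic list is the name of near-identical gene copies, of which the one with most counts was used, and is uncertain. A gene of the retinoic acid list that the rule named and a sequence are not reported here. Promoter windows and starts are from RefSeq.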

Additional observations from a re-analysis of the deposited data

How the results depend on the processing

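With edgeR's adjusted test, 0 of 20094 genes were called, and 2699 had an unadjusted p under 0.05. DESeq2 called 315 genes, 219 of them higher under LGK-974, and with no filter on low counts edgeR called 1206, 305 of them higher. Leaving out each library gave 0 to 2 calls, the 2 without DMSO replicate 1. Limma-voom called 0 (1949 at an unadjusted p under 0.05), as did the other settings not named here. With the replicate block, 0 genes were called (3312 unadjusted). The mice share only replicate numbers, and no pairing is described in the sources used here. The correlations of deviations between libraries of the same number were 0.475, −0.0482 and 0.391 for replicates 1 to 3. Those of replicates 1 and 3 were above every correlation between libraries of different numbers, and that of replicate 2 lay within their range. With so few pairs, these values cannot decide whether animals of the same number shared something. Of the members, Pdpn, Aldh1a2, Wt1 and Msln kept their sign in 18 of 18 other settings. Krt18 and Krt19 kept it in the 17 settings that tested them, and Upk1b in 16. Upk1b was not tested with counts less background or with the filter on CPM. Tbx18 changed sign without DMSO replicate 1 (0.02), Upk3b in 2 settings (0.58 with counts less the receptor-gene background, 0.20 without DMSO replicate 2) and Krt8 in 3 (on coding transcripts, without LGK-974 replicate 1 and without DMSO replicate 3), the lowest of which was −0.30, while counts less background gave Krt8 1.33 (0.03 as reported). Limma-voom gave Upk1b −0.63 (−2.18 as reported), and counts less background gave Krt19 1.54 (0.46 as reported). For Krt18 the values ran from 0.61 without LGK-974 replicate 3 to 3.62 with counts less background. Without DMSO replicate 1, the unadjusted calls became 2 higher and 2 lower in the retinoic acid list and 1 among podoplanin partners. Counts less background, coding transcripts only and the lists without DMSO replicate 1 were settings chosen after seeing the data. Where a library was left out, 2 samples stood for its group. With few counts, counting error adds to the spread between libraries for Upk3b, Upk1b, Krt8 and Krt19. Their standard errors were 0.696, 1.46, 0.776 and 0.960. The causes were not tested.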
